A study of Homo sapiens with 3 samples.

Results

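The genes described here encode the chains of laminin and the subunits of integrin receptors. They were taken as every probe set whose only annotated symbol was a laminin α, β or γ chain (LAMA, LAMB or LAMC plus a number) or an integrin α or β subunit (ITGA or ITGB plus a number or a letter), which gave 95 probe sets for 35 genes of the 19775 genes on the array. Of the 35 genes 10 were laminin chains and 25 were integrin subunits, 18 of the α and 7 of the β kind. RNA came from RA astrocytes at day 210, which had been given retinoic acid between days 10 and 21, from FGF8 astrocytes at day 210, which had been given FGF8 over the same days, and from neuroepithelial cells at day 17, which had received no morphogen. All 3 cultures descended from H9, an established human embryonic stem cell line, through embryoid bodies formed after removal from mouse fibroblast feeders at day 0. Each culture was measured on 1 Affymetrix array, so no difference has a replicate check, a test or an error. What limits the precision is the number of arrays. Age and morphogen treatment cannot be told apart in the comparisons of astrocytes with neuroepithelial cells.

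Laminins are cross-shaped proteins of the basement membrane, each assembled from an α, a β and a γ chain, and they polymerise into the sheet on which polarised cells stand. In the developing neural tube this sheet lies under the basal ends of the neuroepithelial cells, and in the mature brain astrocyte end feet rest on the basement membranes of vessels and of the brain surface. Integrins are receptors of an α and a β subunit that span the plasma membrane and link such matrix proteins to the actin cytoskeleton; a few of them also release active TGF-beta from its latent complex.

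Values are normalised array signals, and a signal of 26.4 was taken as the floor below which a probe set counted as not measured. A gene was called higher or lower at a difference of at least 2-fold, and where 1 of the arrays lay at the floor the fold is a minimum and is given with the words at least. Signals were compared between arrays for the same gene only, since probe sets of different genes differ in brightness. Of the 35 genes 15 lay above the floor on all 3 arrays, 9 on 1 or 2 arrays and 11 on none. RA astrocytes had 20 of them above the floor, FGF8 astrocytes 19 and neuroepithelial cells 19. Those at the floor throughout were LAMA2, an α chain of muscle basement membrane known in mouse brain from astrocytes, LAMB3, LAMB4 and LAMC3 among the laminins. Among the integrins they were ITGA4, ITGA8, ITGA11, the leukocyte subunits ITGAD, ITGAX and ITGB2, and ITGB7. For ITGA4 and ITGA11 another, dimmer probe set stood above the floor in neuroepithelial cells alone: for ITGA11, a collagen receptor, it had a signal of 2.90 in RA astrocytes, 3.96 in FGF8 astrocytes and 58.4 in neuroepithelial cells. For ITGA4, a receptor of fibronectin and VCAM1, it had 3.05 in RA astrocytes, 0.553 in FGF8 astrocytes and 46.3 in neuroepithelial cells.

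The labels were read against marker genes. All 9 astrocyte markers lay above the floor in both astrocyte arrays and 6 in neuroepithelial cells, where GFAP, S100B and AQP4 lay at it. In each astrocyte culture 8 of the 9 were higher than in neuroepithelial cells and 0 lower. Of 9 neuroepithelial markers 7 lay above the floor in each astrocyte array and 9 in neuroepithelial cells, LIN28A and LIN28B there only. Against neuroepithelial cells 1 was higher and 6 lower in RA astrocytes, and 0 higher and 5 lower in FGF8 astrocytes. Over all genes 18.1% were higher and 14.6% lower in RA astrocytes, and 12.8% and 10.2% in FGF8 astrocytes. Leukocyte markers were near the floor everywhere (1 of 11 above it on each array, with summed signals of 133 in RA astrocytes, 103 in FGF8 astrocytes and 105 in neuroepithelial cells), and of 7 endothelial markers 1 lay above it in RA astrocytes, 2 in FGF8 astrocytes and 3 in neuroepithelial cells. Markers of pericytes and mesenchyme differed: 3 of 9 lay above the floor in RA astrocytes, 4 in FGF8 astrocytes and 9 in neuroepithelial cells, with summed signals of 4228 in RA astrocytes, 708 in FGF8 astrocytes and 12282 in neuroepithelial cells. In both astrocyte arrays COL1A1, COL3A1, LUM and DCN were at the floor, and most of the RA sum was ACTA2, smooth muscle actin, with 4090 in RA astrocytes, 217 in FGF8 astrocytes and 2160 in neuroepithelial cells. Of 8 epithelial and endodermal markers 3 lay above the floor in RA astrocytes, 2 in FGF8 astrocytes and 6 in neuroepithelial cells. Of 9 neuronal markers 8 did in RA astrocytes, 7 in FGF8 astrocytes and 9 in neuroepithelial cells. Their summed signals were 26685 in RA astrocytes, 25051 in FGF8 astrocytes and 17489 in neuroepithelial cells. Between the astrocyte cultures 3 of 8 neuronal markers compared were higher and 2 lower in RA astrocytes, beside 9.68% and 7.86% of all genes. DCX, among the lower, had 582 in RA astrocytes, 6763 in FGF8 astrocytes and 2058 in neuroepithelial cells. The ratio of 3′ to 5′ signal of the ACTB control, which climbs as RNA shortens, was 6.67 in RA astrocytes, 6.63 in FGF8 astrocytes and 1.33 in neuroepithelial cells, and spiked transcripts were 2.62-fold brighter on the RA array than on the neuroepithelial array. The part of these differences in the results below was not tested.

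**Figure D1:**
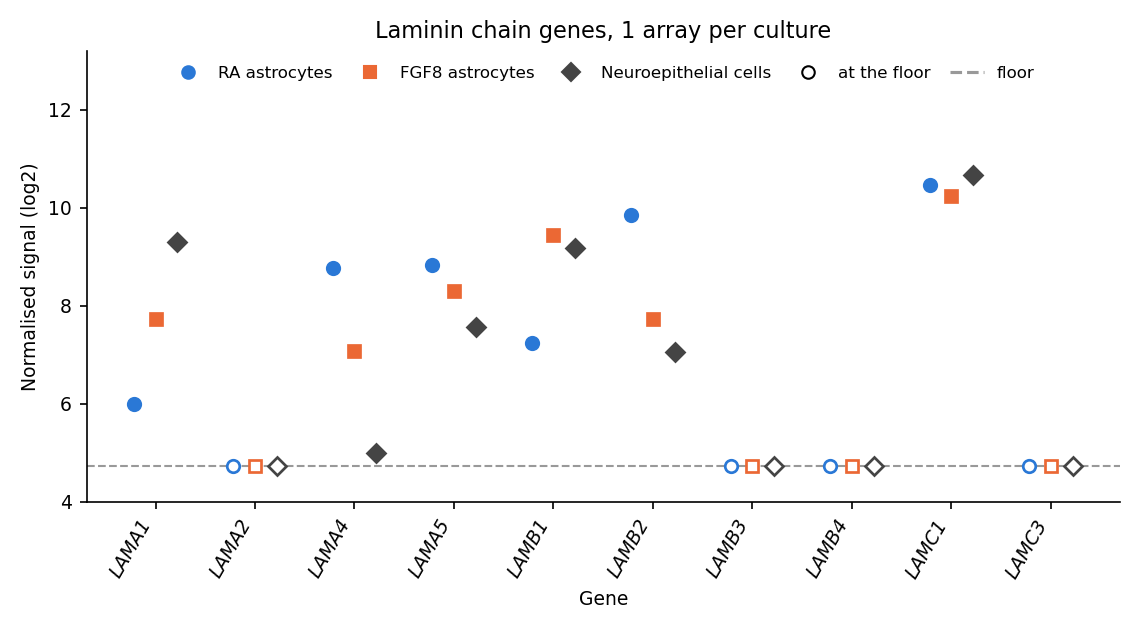
Normalised signal (log2) of the 10 laminin genes in RA astrocytes (circles), FGF8 astrocytes (squares) and neuroepithelial cells (diamonds), 1 array each, with open symbols at the floor of log2 4.72. LAMA1 is highest in neuroepithelial cells, LAMA4, LAMA5 and LAMB2 are highest in RA astrocytes, LAMB1 is lowest there, and LAMC1 is about level.

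The laminin chains made by the cultures differed by position in the trimer. Of 4 α chains 3 were measured, and they went in opposite directions between astrocytes and neuroepithelial cells. LAMA1, the α chain of the earliest embryonic basement membranes, had a signal of 64.0 in RA astrocytes, 211 in FGF8 astrocytes and 633 in neuroepithelial cells. It was 9.89-fold lower in RA astrocytes and 3.01-fold lower in FGF8 astrocytes than in neuroepithelial cells, and in bulk RNA fewer cells that make a transcript and less of it per cell cannot be told apart. LAMA4, an α chain of vessel and mesenchymal basement membranes that lacks the arm of the longer α chains, had 438 in RA astrocytes, 134 in FGF8 astrocytes and 31.8 in neuroepithelial cells. It was 13.8-fold higher in RA astrocytes and 4.22-fold higher in FGF8 astrocytes, against a neuroepithelial value just above the floor. Of the endothelial markers CLDN5, a tight junction gene, had the same order, with 114 in RA astrocytes, 48.1 in FGF8 astrocytes and 2.57 in neuroepithelial cells; CDH5, TIE1 and VWF were at the floor on all 3 arrays, and KDR and TEK were above it in neuroepithelial cells alone. The 7 endothelial markers summed to 148 in RA astrocytes, 99.8 in FGF8 astrocytes and 261 in neuroepithelial cells, and their part was not tested. LAMA5, the α chain of many adult basement membranes, had 453 in RA astrocytes, 316 in FGF8 astrocytes and 189.6 in neuroepithelial cells. Its difference from neuroepithelial cells was 2.39-fold in RA astrocytes and stayed within 2-fold, at 1.66-fold, in FGF8 astrocytes.

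The β chains separated the astrocyte cultures from each other. LAMB2, the β chain known from synaptic clefts and kidney filters, had a signal of 925 in RA astrocytes, 211 in FGF8 astrocytes and 133 in neuroepithelial cells. LAMB1, its counterpart in embryonic basement membranes, had 151 in RA astrocytes, 692 in FGF8 astrocytes and 580.5 in neuroepithelial cells. RA astrocytes therefore stood apart from both other cultures on each gene, with LAMB2 6.94-fold higher and LAMB1 3.85-fold lower than in neuroepithelial cells. FGF8 astrocytes lay within 2-fold of neuroepithelial cells on both, at log2 differences of 0.66 for LAMB2 and 0.25 for LAMB1. The γ chain LAMC1, which most laminins share, had 1408 in RA astrocytes, 1209 in FGF8 astrocytes and 1634 in neuroepithelial cells, within 2-fold in each comparison.

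The sequence upstream of 3 laminin genes is shown because they differ in opposite directions in RA astrocytes, where LAMA4 and LAMB2 were highest and LAMB1 lowest. Each line is the 250 bases before the RefSeq start in build GRCh38.p14, read 5′ to 3′ on the gene's minus strand, at chr6:112254568-112254817 for LAMA4, chr3:49133051-49133300 for LAMB2 and chr7:108003162-108003411 for LAMB1, with matches to the GC box (GGGCGG, either strand, overlaps counted) in capitals.
LAMA4: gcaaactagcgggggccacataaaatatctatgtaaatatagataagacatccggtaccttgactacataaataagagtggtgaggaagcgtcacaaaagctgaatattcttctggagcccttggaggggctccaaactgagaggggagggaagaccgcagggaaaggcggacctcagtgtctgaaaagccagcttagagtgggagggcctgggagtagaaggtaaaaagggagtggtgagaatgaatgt
LAMB2: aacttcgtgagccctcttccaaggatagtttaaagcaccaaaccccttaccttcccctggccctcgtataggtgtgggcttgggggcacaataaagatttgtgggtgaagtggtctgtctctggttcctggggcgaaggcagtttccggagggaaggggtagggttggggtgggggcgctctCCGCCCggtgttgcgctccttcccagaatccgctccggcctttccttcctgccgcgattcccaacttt
LAMB1: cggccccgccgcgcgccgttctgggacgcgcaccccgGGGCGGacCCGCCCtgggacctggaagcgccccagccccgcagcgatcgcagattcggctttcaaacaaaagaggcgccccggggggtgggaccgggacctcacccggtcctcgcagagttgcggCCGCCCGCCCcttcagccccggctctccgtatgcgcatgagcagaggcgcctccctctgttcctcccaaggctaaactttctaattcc
The GC box, a motif of SP family factors, matched 0 times before LAMA4, 1 time before LAMB2 and 4 times before LAMB1, and 42.6% of 35116 RefSeq upstream windows of this length held at least 1 match. Bases G and C made up 48.4% of the LAMA4 window, 58.4% of the LAMB2 window and 70.4% of the LAMB1 window, against a median of 58% over all windows. None of the 3 windows held the NFI core TTGGC, the AP-1 site TGANTCA or the nuclear receptor core AGGTCA on either strand, letters that 40.8%, 6.57% and 12.1% of all windows held. RefSeq gave such a window for 24 of the 35 genes. A match is a string of letters and not a bound site, and its absence speaks of these windows only.

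**Figure D2:**
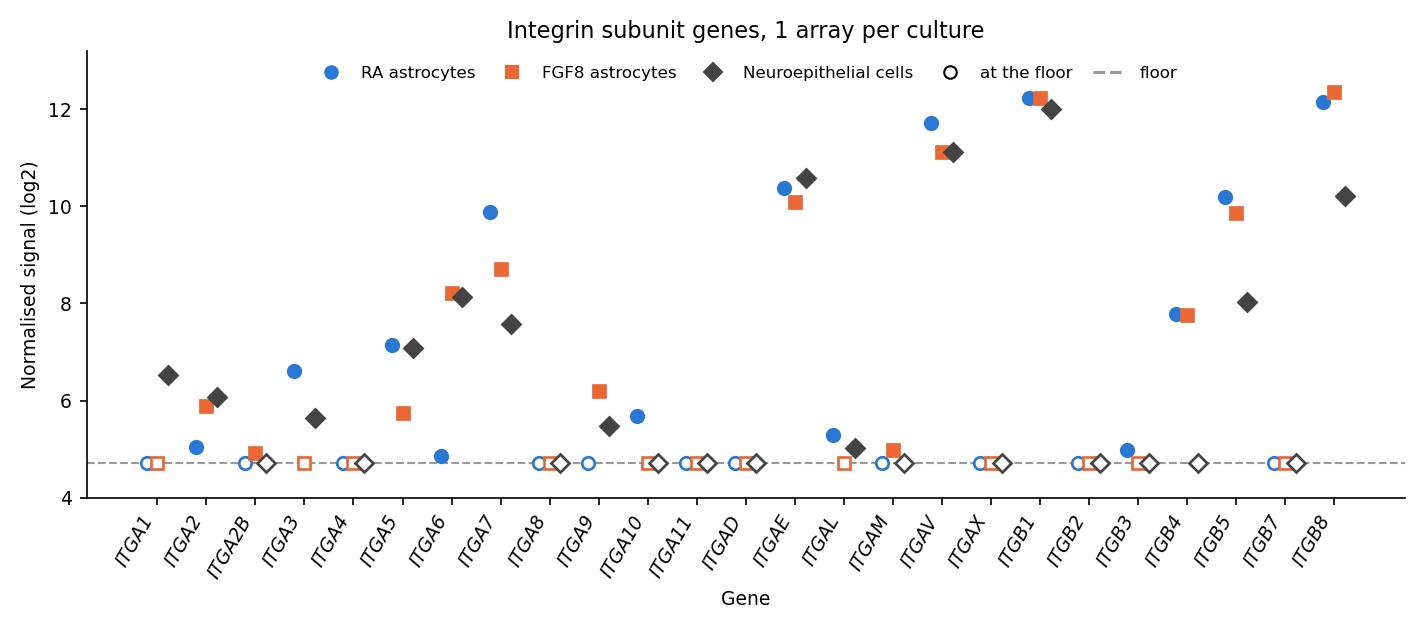
Normalised signal (log2) of the 25 integrin genes, with the symbols of the laminin plot. ITGB4, ITGB5 and ITGB8 stand higher in both astrocyte cultures than in neuroepithelial cells, ITGA6 is near the floor in RA astrocytes only, and ITGB1 and ITGAV are bright on all 3 arrays.

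Of the 7 integrin β subunits with a probe set of 1 symbol, ITGB4, ITGB5 and ITGB8 were called higher in both astrocyte cultures and 0 lower. They were 3 of 5 compared in RA astrocytes and 3 of 4 in FGF8 astrocytes. Probe sets that list an integrin or laminin symbol beside another symbol are not counted here. Among those, 1 had 96.2 in neuroepithelial cells and lay under the floor in both astrocyte cultures, and another was above it in the astrocyte cultures alone. Of the α subunits, 1 was called higher and 3 lower of 11 compared in RA astrocytes, or 9.09% and 27.3%. In FGF8 astrocytes 1 was higher and 2 lower of 12, or 8.33% and 16.7%. Over all genes 18.1% were higher and 14.6% lower in RA astrocytes, and 12.8% and 10.2% in FGF8 astrocytes. ITGB8, which pairs with ITGAV and activates latent TGF-beta, had a signal of 4540 in RA astrocytes, 5256 in FGF8 astrocytes and 1179 in neuroepithelial cells, or 3.85-fold higher in RA astrocytes and 4.46-fold higher in FGF8 astrocytes. ITGB5, another partner of ITGAV and a vitronectin receptor, had 1166 in RA astrocytes, 935 in FGF8 astrocytes and 262 in neuroepithelial cells, or 4.45-fold higher in RA astrocytes and 3.56-fold higher in FGF8 astrocytes. ITGB4, the partner of ITGA6 in hemidesmosomes, had 218 in both RA and FGF8 astrocytes and 15.7 in neuroepithelial cells, a signal under the floor. It was at least 8.29-fold higher in RA astrocytes and at least 8.27-fold higher in FGF8 astrocytes on that probe set, while its other probe sets above the floor, 3 in RA astrocytes and 1 in FGF8 astrocytes, gave minimum log2 differences between 0.15 and 0.50, since neuroepithelial cells lay under the floor there too. ITGB1, the β subunit with the most α partners, had 4792 in RA astrocytes, 4812 in FGF8 astrocytes and 4127 in neuroepithelial cells. ITGB3, a subunit of platelets and vessels, had 31.8 in RA astrocytes, 20.2 in FGF8 astrocytes and 19.1 in neuroepithelial cells, above the floor in RA astrocytes alone. Among the β subunits counted here, ITGB4, ITGB5 and ITGB8 thus separated astrocytes from neuroepithelial cells on their representing probe sets. Each of these pairs with 1 known α subunit, and the shared ITGB1 was within 2-fold. Dimmer probe sets of ITGB8 had log2 bounds of -0.56 and -0.37 in RA astrocytes against neuroepithelial cells.

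The α subunits that bind laminin went in different directions. ITGA6, a laminin receptor of neural stem cells, had a signal of 29.2 in RA astrocytes, close to the floor, 299 in FGF8 astrocytes and 280.2 in neuroepithelial cells. It was 9.60-fold lower in RA astrocytes than in neuroepithelial cells, and FGF8 astrocytes differed from neuroepithelial cells by 0.09 on the log2 scale. ITGA7, a laminin receptor first known from muscle, had 942 in RA astrocytes, 420.1 in FGF8 astrocytes and 190.1 in neuroepithelial cells, or 4.95-fold higher in RA astrocytes and 2.21-fold higher in FGF8 astrocytes. ITGA3, another laminin receptor, had 97.3 in RA astrocytes, 21.0 in FGF8 astrocytes, under the floor, and 49.8 in neuroepithelial cells, and neither astrocyte culture was called against neuroepithelial cells. Among these receptors RA astrocytes were highest in ITGA7 and ITGA3 and lowest in ITGA6.

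Receptors for collagen had signals under 100 on their representing probe sets. Of the 3 measured, 2 were called lower in RA astrocytes than in neuroepithelial cells, beside 14.6% of all genes. ITGA1 had a signal of 10.1 in RA astrocytes, 18.5 in FGF8 astrocytes and 92.6 in neuroepithelial cells, at least 3.51-fold lower in both astrocyte cultures. ITGA2 had 32.9 in RA astrocytes, 58.8 in FGF8 astrocytes and 66.9 in neuroepithelial cells, 2.03-fold lower in RA astrocytes, and another probe set of the gene had 1.36 in RA astrocytes, 154 in FGF8 astrocytes and 205 in neuroepithelial cells. ITGA10, a cartilage collagen receptor, had 51.2 in RA astrocytes, 13.6 in FGF8 astrocytes and 18.6 in neuroepithelial cells, so that only RA astrocytes were above the floor. ITGA1 and ITGA2 were highest in neuroepithelial cells, as was the summed signal of the mesenchymal markers, whose part was not tested.

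ITGA5 and ITGAV, subunits of receptors of the RGD motif, the short peptide found in fibronectin and vitronectin, did not go together. The other α subunits that follow them are not grouped by this motif. ITGA5, the fibronectin receptor, had a signal of 142 in RA astrocytes, 53.5 in FGF8 astrocytes and 135 in neuroepithelial cells, 2.53-fold lower in FGF8 astrocytes. ITGAV, the partner of ITGB5 and ITGB8, had 3351 in RA astrocytes, 2226 in FGF8 astrocytes and 2216 in neuroepithelial cells, within 2-fold throughout. ITGA9, a receptor of tenascin and VCAM1, was under the floor in RA astrocytes and had 73.1 in FGF8 astrocytes and 44.2 in neuroepithelial cells. ITGAE, known from lymphocytes of epithelia, was bright on all arrays, at 1329 in RA astrocytes, 1092 in FGF8 astrocytes and 1522 in neuroepithelial cells, while its only known partner ITGB7 was at the floor. The leukocyte and platelet subunits stayed close to the floor. ITGAL had 39.1 in RA astrocytes, 15.0 in FGF8 astrocytes and 32.5 in neuroepithelial cells. ITGAM had 12.4 in RA astrocytes, 31.7 in FGF8 astrocytes and 14.5 in neuroepithelial cells. ITGA2B, the platelet subunit, had 12.4 in RA astrocytes, 30.4 in FGF8 astrocytes and 23.8 in neuroepithelial cells.

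A receptor needs an α and a β subunit, so the genes were also read as pairs. Of 23 known pairs both genes were above the floor for 11 in RA astrocytes, 9 in FGF8 astrocytes and 10 in neuroepithelial cells. ITGB1 with ITGA2, ITGA5, ITGA6 or ITGA7, and ITGAV with ITGB1, ITGB5 or ITGB8, had both genes above the floor in all 3 cultures. ITGA6 with ITGB4, the hemidesmosome receptor, had both above it in RA and FGF8 astrocytes and not in neuroepithelial cells, although ITGA6 stood at only 29.2 in RA astrocytes. ITGA10 with ITGB1 and ITGAV with ITGB3 had both above it in RA astrocytes alone, and ITGA1 with ITGB1 in neuroepithelial cells alone. ITGA3 with ITGB1 was measured in RA astrocytes and neuroepithelial cells, and ITGA9 with ITGB1 in FGF8 astrocytes and neuroepithelial cells. RNA above the floor says nothing of whether the proteins meet at the cell surface, which was not measured.

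**Figure D3:**
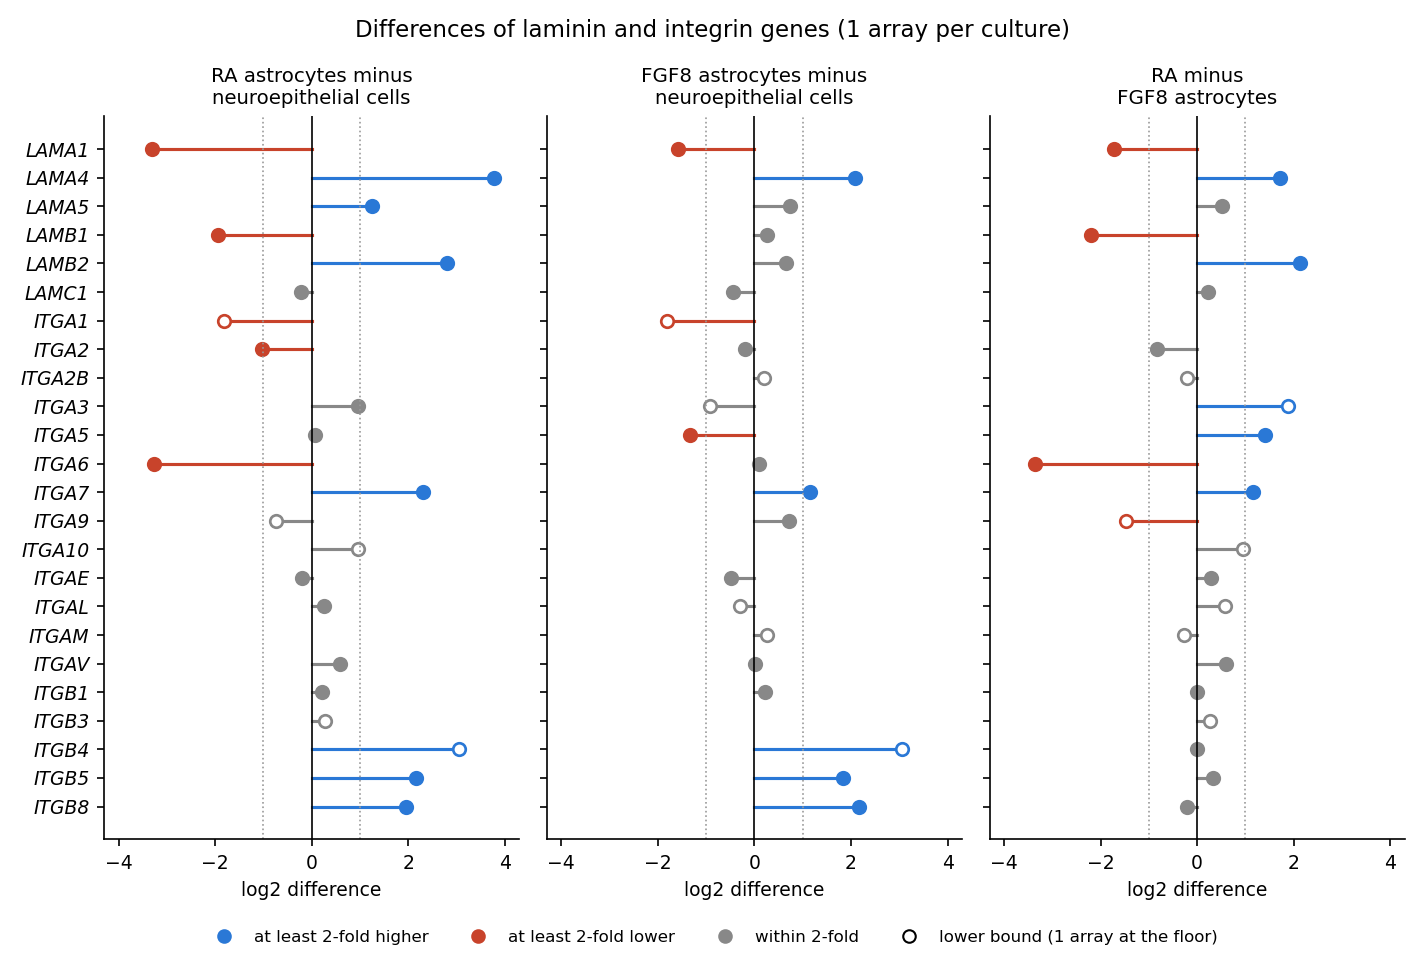
Log2 differences of the 24 genes above the floor on at least 1 array, with a panel each for RA astrocytes over neuroepithelial cells, FGF8 astrocytes over neuroepithelial cells, and RA over FGF8 astrocytes. Blue and red mark genes at least 2-fold higher or lower, grey those not past 2-fold, and open circles lower bounds; the β integrins ITGB4, ITGB5 and ITGB8 are higher in the first and second panels and near 0 in the last.

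Against neuroepithelial cells, RA astrocytes had 7 laminin and integrin genes at least 2-fold higher and 5 lower of 22 that could be compared, where 18.1% of 13339 genes compared across the array were higher and 14.6% lower. The higher genes were LAMA4, LAMA5, LAMB2, ITGA7, ITGB4, ITGB5 and ITGB8, and the lower ones LAMA1, LAMB1, ITGA1, ITGA2 and ITGA6. The shares were 31.8% and 22.7% of the genes compared, and with array medians set equal the split was 9 higher and 4 lower, beside 25.4% higher and 10.5% lower over all genes. The median log2 difference was 0.27, against 0.07 over all genes compared. The median size without regard to sign was 1.14 log2 units, against 0.64 over all genes. Of the 6 laminins compared 5 passed 2-fold, and of the 16 integrins 7 did, beside 32.7% of all genes.

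FGF8 astrocytes had 5 of 22 genes higher and 3 lower than neuroepithelial cells, where 12.8% of 13004 genes were higher and 10.2% lower. Higher were LAMA4, ITGA7, ITGB4, ITGB5 and ITGB8, and lower were LAMA1, ITGA1 and ITGA5. With array medians set equal the split was 7 higher and 3 lower, beside 21.9% higher and 7.02% lower over all genes. The median log2 difference was 0.21, against 0.05 over all genes, and the median size 0.69, against 0.49. Both comparisons use the same neuroepithelial array, so what the astrocyte cultures share in them is not independent. For LAMA4 the log2 difference from neuroepithelial cells was 3.79 in RA astrocytes and 2.08 in FGF8 astrocytes, and for ITGA7 it was 2.31 in RA astrocytes and 1.14 in FGF8 astrocytes.

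Between the astrocyte cultures, which share their age and differ in the morphogen given, 5 of 23 genes were at least 2-fold higher in RA than in FGF8 astrocytes and 4 lower, where 9.68% of 12959 genes were higher and 7.86% lower. LAMB2 was 4.39-fold higher, LAMA4 3.27-fold, ITGA3 at least 3.69-fold, ITGA5 2.65-fold and ITGA7 2.24-fold higher in RA astrocytes. ITGA6 was 10.2-fold lower, LAMB1 4.59-fold, LAMA1 3.29-fold and ITGA9 at least 2.77-fold lower in RA astrocytes. None of the β integrins passed 2-fold on the representing probe set, where the log2 difference was -0.21 for ITGB8 and 0.32 for ITGB5, and for ITGB3 a minimum of 0.27. Other probe sets went further: 2 dim ones of ITGB8 had minimum differences of -1.14 and -1.01, 1 of ITGB5 had 1.81, and ITGB8 had -1.49 with its probe sets averaged. The genes past 2-fold between the astrocyte cultures were thus laminin α and β chains and integrin α subunits, while LAMC1 and LAMA5 were within it. The ACTB ratios of these arrays were close, at 6.67 in RA astrocytes and 6.63 in FGF8 astrocytes, whereas spiked transcripts were 2.40-fold brighter on the RA array, and their part in the result was not tested.

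**Figure D4:**
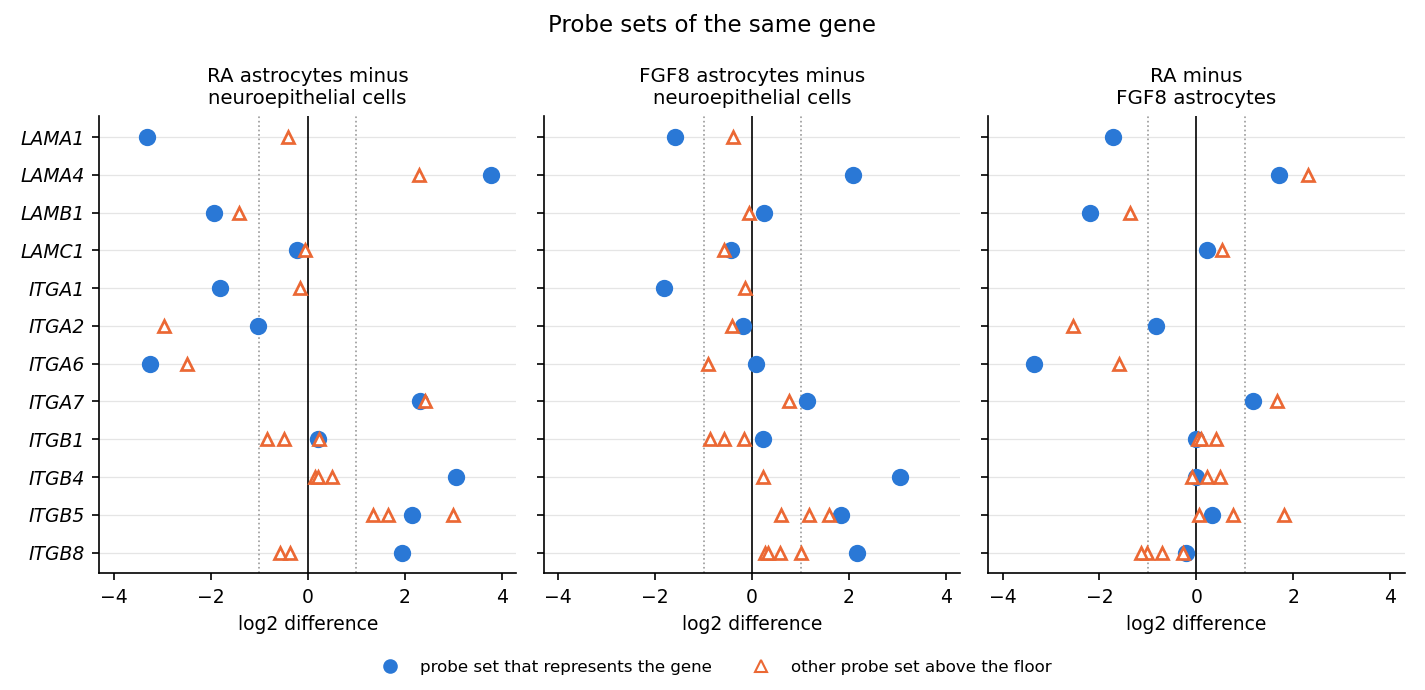
Log2 differences of every probe set above the floor for the 12 genes with several such probe sets, in the 3 comparisons, with circles for the probe set that represents the gene and triangles for the others. LAMB1, ITGA6 and ITGA7 lie on the same side of 0 in the first and last panels, whereas other probe sets of ITGB8 and ITGB4 lie away from the representing one in the first panel. Lower bounds are not marked here, and every ITGB4 value against neuroepithelial cells is a bound.

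Several genes had more than 1 probe set, which gives a second reading from the same RNA but no replicate. In RA astrocytes against neuroepithelial cells, 15 other probe sets of genes past 2-fold could be compared; 13 lay in the same direction, 8 of them past 2-fold as well. LAMA4 had 2.29 as a lower bound on its other probe set beside 3.79, LAMB1 had -1.42 beside -1.94, ITGA7 had 2.41 beside 2.31, and the other probe sets of ITGB5 had 1.34, 1.66 and, as a bound, 2.99 beside 2.15. The exceptions were probe sets of ITGB8 with signals under 60 on every array, at bounds of -0.56 and -0.37 against 1.95 for the bright one. ITGB1 had 0.22 on its brightest probe set and -0.83 and -0.48 on those next in brightness. For FGF8 astrocytes against neuroepithelial cells, 11 other probe sets of genes past 2-fold could be compared. All 11 lay in the same direction, but only 3 of them were past 2-fold. In RA against FGF8 astrocytes, other probe sets gave -1.59 as a bound for ITGA6, -1.37 for LAMB1, 2.29 as a bound for LAMA4 and 1.66 for ITGA7, each in the direction of the representing one. LAMB2, LAMA5, ITGA3, ITGA5 and ITGAV rest on 1 probe set each.

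Some calls ended under another setting. The floor at the 70th percentile put 1 array of a pair under it, so that only a minimum was left: a log2 difference of 0.49 for LAMA4 and -0.51 for ITGA5 in FGF8 astrocytes against neuroepithelial cells, and 0.57 for ITGA5 and 0.03 for ITGA3 in RA against FGF8 astrocytes. At that floor ITGA1 in both astrocyte cultures and ITGA2 in RA astrocytes had no value left against neuroepithelial cells. With all probe sets of a gene averaged, LAMA4 and ITGB4 fell under the floor and had no value in either astrocyte culture against neuroepithelial cells. ITGA1 had a minimum of -0.01 in both astrocyte cultures against neuroepithelial cells with that averaging, and in RA astrocytes ITGB8 turned to -0.56. The same averaging gave FGF8 astrocytes 0.95 for ITGA7 and 0.93 for ITGB8 against neuroepithelial cells, and gave LAMA1 a minimum of -0.62 in RA against FGF8 astrocytes. ITGA2 in RA astrocytes lay at -0.94 with equal array medians, and ITGB4 had a minimum of 0.22 without the less specific probe sets. LAMB1 and ITGA6 stayed past 2-fold, where called, under each alternative scaling, floor and probe set choice. LAMB2 did so too, except that it has no value without the less specific probe sets, which leave out its only one.

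**Figure D5:**
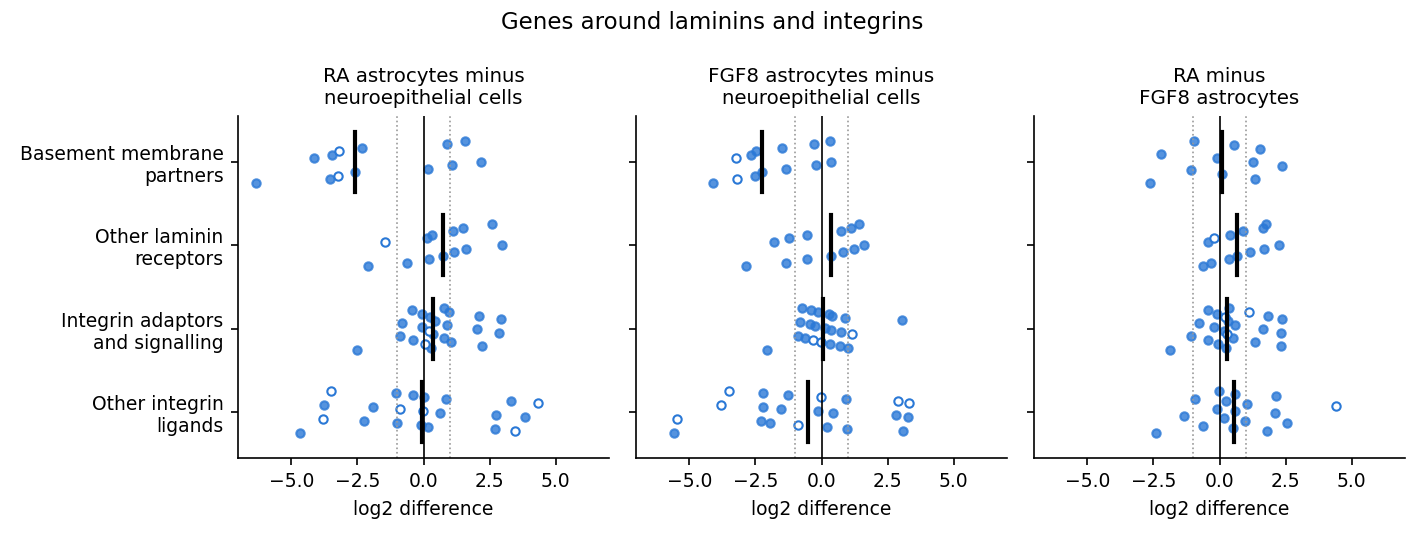
Log2 differences of genes in 4 lists around laminins and integrins, 1 point per gene with open points for lower bounds and a bar at the median, in the 3 comparisons. Basement membrane partners lie mostly below 0 in both astrocyte cultures against neuroepithelial cells, and the other lists spread to both sides.

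The other genes of the basement membrane were mostly lower in astrocytes. Of 17 such genes 13 could be compared in RA astrocytes, with 3 higher and 8 lower than in neuroepithelial cells, beside 18.1% and 14.6% of all genes, and a median of -2.57 beside 0.07. In FGF8 astrocytes 0 were higher and 9 lower of 13, beside 12.8% and 10.2%, with a median of -2.23 beside 0.05. COL4A6, a chain of type IV collagen, had a signal of 27.9 in RA astrocytes, 131 in FGF8 astrocytes and 2222 in neuroepithelial cells, 79.6-fold lower in RA astrocytes than in neuroepithelial cells. The main type IV chain COL4A1 went the other way, at 5152 in RA astrocytes, 2149 in FGF8 astrocytes and 1723 in neuroepithelial cells. NID2, a nidogen that ties laminin to type IV collagen, was at least 9.51-fold lower in both astrocyte cultures. Agrin, encoded by AGRN, a laminin-binding proteoglycan, had 1697 in RA astrocytes, 331 in FGF8 astrocytes and 379 in neuroepithelial cells, so that it followed LAMB2 in being highest in RA astrocytes. PXDN, an enzyme that crosslinks type IV collagen, was 17.5-fold lower in RA astrocytes than in neuroepithelial cells and 6.15-fold lower than in FGF8 astrocytes. Perlecan, encoded by HSPG2, had 281 in RA astrocytes, 98.2 in FGF8 astrocytes and 251 in neuroepithelial cells. The mesenchymal markers, whose sum was highest in neuroepithelial cells, moved with this list, and their part was not tested.

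A list of laminin receptors other than integrins held syndecans and the dystrophin complex, with partners that are not receptors themselves. Of its 22 genes 14 had a probe set of 1 symbol, and DAG1 and RPSA were among those without. In RA astrocytes 6 were higher and 2 lower of 13 than in neuroepithelial cells, beside 18.1% and 14.6% of all genes. The median was 0.74, against 0.07 over all genes, and the lower genes were the receptor BCAM and SDC1. In FGF8 astrocytes 4 were higher and 4 lower of 13, beside 12.8% and 10.2% (median 0.35, against 0.05). SDC3, the syndecan of nervous tissue, had 1316 in RA astrocytes, 393 in FGF8 astrocytes and 169 in neuroepithelial cells, and SNTB1, a syntrophin that docks to dystrophin, had 427 in RA astrocytes, 191 in FGF8 astrocytes and 71.4 in neuroepithelial cells. SDC2 had 1848 in RA astrocytes, 393 in FGF8 astrocytes and 2852 in neuroepithelial cells, so that FGF8 astrocytes were 7.25-fold lower. Dystrophin itself, DMD, was 3.19-fold higher in RA than in FGF8 astrocytes, and in that comparison 5 of 13 genes of the list were higher and 0 lower, beside 9.68% and 7.86% of all genes.

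A list of integrin adaptors and signalling genes held proteins that join integrins to actin and also kinases and tetraspanins. Of these genes 6 were higher and 1 lower of 23 in RA astrocytes against neuroepithelial cells, beside 18.1% and 14.6% of all genes. The median was 0.35 beside 0.07. In FGF8 astrocytes 3 were higher and 1 lower of 22, beside 12.8% and 10.2% of all genes, with a median of 0.05 for the list and for all genes. The tetraspanin CD9, a membrane partner of integrins, had 2173 in RA astrocytes, 2330.2 in FGF8 astrocytes and 284 in neuroepithelial cells. The focal adhesion proteins paxillin (PXN, 314 in RA astrocytes, 62.7 in FGF8 astrocytes and 73.5 in neuroepithelial cells) and tensin (TNS1, 338 in RA astrocytes, 66.4 in FGF8 astrocytes and 72.9 in neuroepithelial cells) were highest in RA astrocytes. TNS3, another tensin, had 169 in RA astrocytes, 623 in FGF8 astrocytes and 959 in neuroepithelial cells. Between the astrocyte cultures 7 genes of the list were higher and 2 lower of 23 in RA astrocytes, beside 9.68% and 7.86% of all genes. A caveolin gene, CAV1, was among the higher at 5.07-fold.

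Integrin ligands other than laminins were split. In RA astrocytes 6 were higher and 8 lower of 22 than in neuroepithelial cells, beside 18.1% and 14.6% of all genes, with a median of -0.06 beside 0.07. In FGF8 astrocytes 5 were higher and 10 lower of 22, beside 12.8% and 10.2%, with a median of -0.50 beside 0.05. Fibronectin, FN1, the ligand of ITGA5, had 182 in RA astrocytes, 966 in FGF8 astrocytes and 4666 in neuroepithelial cells, or 25.6-fold lower in RA astrocytes and 4.83-fold lower in FGF8 astrocytes. TGFB2 had 2117 in RA astrocytes, 1793 in FGF8 astrocytes and 212 in neuroepithelial cells, and LTBP3, which stores latent TGF-beta in the matrix, was at least 20.1-fold higher in RA astrocytes and at least 9.88-fold higher in FGF8 astrocytes. TGFB1, whose latent form ITGB8 with ITGAV can activate, had 358 in RA astrocytes, 61.1 in FGF8 astrocytes and 53.2 in neuroepithelial cells, 5.87-fold higher in RA than in FGF8 astrocytes. SPP1, or osteopontin, an RGD ligand, had 561 in RA astrocytes, 19.1 in FGF8 astrocytes, under the floor, and 1158 in neuroepithelial cells.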

How the data were processed

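RNA of 3 cultures was labelled with biotin at a microarray consortium by the manufacturer's procedure, per the labels' protocols. The values the authors deposited are a linear intensity per probe set for 54675 probe sets. The values show each array scaled to a mean of about 150.02 without the lowest and highest 2%. Which signal algorithm was used is not stated in these sources.

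Intensities were quantile normalised over the 3 arrays and brought to log2 (numpy 2.4.6, pandas 2.3.3). The 75th percentiles of the deposited intensities spanned 0.14 log2 units. The floor was the median of 54613 non-control probe sets, log2 4.72. Of these, 41091 carried 1 gene symbol, 1801 several and 11721 none, and only those with 1 were named. All 95 probe sets described matched a RefSeq gene by identifier, and 0 symbols changed. Each gene took the value of the probe set whose mean log2 value was highest, without the _x_at type where another existed. Every laminin and integrin gene with such a probe set is named. Partner genes given a value or direction are among the 3 largest differences past 2-fold per direction, list and comparison. The steps were tested on simulated arrays. Members and lists were chosen with earlier results of these data known. Alternatives changed the scaling, floor, probe set choice and fold.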

Additional observations from a re-analysis of the deposited data

Results flagged for a closer look

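Of the laminin and integrin genes, 5 lay on opposite sides of the neuroepithelial value in the astrocyte cultures and differed by at least 2-fold between RA and FGF8 astrocytes. With 1 array each, the difference was not tested. The log2 difference of RA minus FGF8 astrocytes was -3.36 for ITGA6, -2.20 for LAMB1, -1.47 as a bound for ITGA9, 1.88 as a bound for ITGA3 and 1.41 for ITGA5. For 3 of them the distance from neuroepithelial cells was small on 1 side: ITGA6 differed by 0.09 and LAMB1 by 0.25 in FGF8 astrocytes, and ITGA5 by 0.07 in RA astrocytes. ITGA3 differed from neuroepithelial cells by 0.97 in RA astrocytes and, as a bound, by -0.92 in FGF8 astrocytes, and ITGA9 by -0.75, as a bound, in RA astrocytes and 0.72 in FGF8 astrocytes. For ITGA6 the mean of all probe sets turned the FGF8 value to -0.40, for LAMB1 the other probe set gave -0.06 in FGF8 astrocytes, and for ITGA5 the deposited values turned the RA value to -0.08.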

How the results depend on the processing

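Counts of genes past 2-fold moved mainly with the probe set choice and the floor. In RA astrocytes against neuroepithelial cells, the 7 higher genes became 4 when all probe sets were averaged and 3 when less specific ones were dropped, which left 16 of 22 genes to compare and removed LAMA4, LAMA5 and LAMB2, and the 5 lower genes became 3 with the floor at the 70th percentile and 2 at 4-fold. In FGF8 astrocytes the 5 higher genes became 1 when all probe sets were averaged, 3 without the less specific ones, 8 at 1.5-fold and 3 at 4-fold, and the 3 lower genes became 6 with the floor at the 30th percentile, 1 at the 70th, 8 without a floor and 0 at 4-fold. In RA against FGF8 astrocytes the 5 higher genes became 3 with the floor at the 70th percentile, 11 without a floor, 2 without the less specific probe sets and 1 at 4-fold, and the 4 lower ones 7 without a floor and 2 at 4-fold. Of 242 alternative values of the 29 differences past 2-fold, 241 kept their direction and 229 stayed past 2-fold. A difference left with no value under a setting is not counted among the 242, as for LAMA4 and ITGB4 with all probe sets averaged. The exception in direction was ITGB8 in RA astrocytes against neuroepithelial cells, at -0.56 with all probe sets averaged. That average weights 4 dim probe sets like the bright one. The median of the compared genes ranged from -0.21 to 0.63 in RA astrocytes and from -0.004 to 0.54 in FGF8 astrocytes against neuroepithelial cells. With equal array medians the all-gene median was 0.35 in RA and 0.42 in FGF8 astrocytes, and under it LAMC1 turned to 0.32 and 0.13. Leaving out ITGA2B changed no count. Normalising only the compared arrays and taking the probe set brightest on any array were chosen after seeing the data, and kept all 6 counts within 1.5-fold. Over the 2-fold settings the share of all genes called ranged from 15.7% to 25.4% higher and from 10.5% to 21.2% lower in RA astrocytes against neuroepithelial cells. It ranged from 10.4% to 21.9% and from 7.02% to 17.7% in FGF8 astrocytes. In RA against FGF8 astrocytes it ranged from 8.13% to 18.4% and from 6.27% to 16.1%, with the upper ends reached without a floor. At 4-fold the shares were 6.52% higher and 5.46% lower, 3.71% and 3.51%, and 2.5% and 2.65% in these comparisons. At 1.5-fold 23.4% of all genes were higher in FGF8 astrocytes than in neuroepithelial cells. No paired analysis was possible because each group has 1 array. Signals near the floor limit ITGA6 and LAMA4, whose folds are nearly bounds.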

Other observations

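A further 5 probe sets list an integrin or laminin symbol beside another symbol and were given no gene name. Of these, 1 had a signal of 0.514 in RA astrocytes, 1.66 in FGF8 astrocytes and 96.2 in neuroepithelial cells, and another had 43.0 in RA astrocytes, 72.2 in FGF8 astrocytes and 20.5 in neuroepithelial cells.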
